A study of Homo sapiens with 12 samples.

Results

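The genes described here are 10 markers and regulators of naive pluripotency, namely KLF2, KLF4, KLF5, KLF6, KLF17, DPPA3, DPPA5, TFCP2L1, TBX3 and ESRRB. They were taken by gene name from the 60617 genes of the TPM table, and all 10 also had read counts. The data were RNA-Seq of 12 libraries from 201B7, an established human iPSC line, with 3 libraries in each of 4 culture conditions and harvest on Day 5. Cond 1 was the control in StemFit medium. Cond 2, the low nutrient condition, used StemFit that had first been heated at 56 °C for 30 min. Cond 3, the differentiation condition, used DMEM with 10% FBS, MEM NEAA and GlutaMax. The paper places the start of the heated medium on Day 2 and speaks of stimulation by FBS on Day 4. Between Cond 2 and Cond 3, the medium and the length of exposure therefore cannot be told apart. Cond 4, the physical stimulus, differed from Cond 1 in that the cells were pipetted 20 times when passaged. All libraries came from the same line, so the spread between them does not include differences between donors or clones. The deposited design describes 3 plates with a well for each condition, while the methods describe several plates per run and the results speak of technical replicates, so the p-values measure only the spread between these libraries.

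Naive pluripotency is the state of the epiblast before implantation, and primed pluripotency is that of the epiblast after implantation, which conventional human iPSCs resemble. The KLF proteins are zinc finger transcription factors that bind GC-rich boxes in DNA. KLF2, KLF4 and KLF5 maintain naive mouse cells, KLF17 marks naive human cells, and KLF4 is also a reprogramming factor. KLF6 is a broadly expressed relative that responds to growth factors and stress. ESRRB, an orphan nuclear receptor, TFCP2L1, a grainyhead-like factor, and TBX3, a T-box repressor, belong to the naive network defined in mouse cells. DPPA3, also called STELLA, protects DNA methylation patterns in the early embryo and marks germ cells. DPPA5 is an RNA-binding protein of naive and germ cells.

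Libraries had 16441148 to 21871503 counts in total, and between 17217 and 18007 genes reached 1 TPM. TPM corrects the reads of a gene for its length and for the depth of the library, so that levels can be compared between genes. The 10 markers of human pluripotent cells summed to 7390 to 7596 TPM in Cond 1, 6267 to 7169 in Cond 2, 7095 to 7585 in Cond 3 and 7242 to 7725 in Cond 4. Of these markers 4 were higher and 5 lower in Cond 2 (edgeR adjusted p under 0.05), 90% against 20.9% of all genes tested. In Cond 3, 3 were higher and 4 lower, 70% against 38.4%. SOX2 was at 908 ± 30.1, 1304 ± 25.1, 1263 ± 7.93 and 960 ± 11.7 TPM in Cond 1 to Cond 4 (SD, n = 3). TDGF1, a NODAL co-receptor, fell by 1.5 on the log2 scale in Cond 2 (edgeR adjusted p = 4.34e-10). POU5F1 had 6 to 25 reads per library and 1.32 ± 0.275, 0.592 ± 0.189, 1.2 ± 0.192 and 1.19 ± 0.149 TPM in Cond 1 to Cond 4 (SD, n = 3), and its copies on alternate haplotype sequences were not analysed here. NANOG, a core pluripotency factor, was at 45.9 ± 1.93 TPM in Cond 1, 22.9 ± 2.37 in Cond 2, 10.5 ± 0.759 in Cond 3 and 46.6 ± 1.82 in Cond 4 (SD, n = 3). In such bulk samples, fewer cells that express a gene and less RNA per cell cannot be told apart.

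Detection levels are given before any change, since the 10 genes lay at very different levels. Of 19986 protein-coding genes, 12957 (64.8%) had a mean of at least 1 TPM and 4579 (22.9%) were below 0.1 TPM. Against this scale 5 genes, KLF6, KLF4, ESRRB, TFCP2L1 and KLF5, stayed at 1 TPM or above in all 12 libraries. A group of 4 genes, DPPA3, KLF2, DPPA5 and TBX3, lay between that level and the floor, here set at 3 reads per library. KLF17 was the 1 gene at or under the floor throughout.

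KLF6 was the most abundant, with a mean of 24.9 TPM over the 12 libraries and 561 to 1036 reads per library, above 70.2% of protein-coding genes. KLF4 followed with a mean of 5.68 TPM and 63 to 173 reads, above 48.8% of protein-coding genes. ESRRB had a mean of 4.00 TPM and 69 to 208 reads. TFCP2L1 had a mean of 3.38 TPM and 87 to 239 reads, and KLF5 a mean of 3.18 TPM and 47 to 81 reads. The last 3 of these means lay within 1 TPM of each other, and their libraries overlapped in TPM. None of the 5 was therefore absent, but only KLF6 was above the middle of the protein-coding genes.

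The other genes rested on few reads. DPPA3 had 0 to 26 reads per library and a mean of 1.47 TPM, and KLF2 had 1 to 20 reads and a mean of 0.957 TPM. DPPA5 had 17 reads in total and was at 0 in 5 libraries, with a mean of 0.403 TPM for its short length of 659 bases. TBX3 had 31 reads in total, was at 0 in 4 libraries and had a mean of 0.0863 TPM, below 0.1 TPM like 22.9% of protein-coding genes. KLF17 had 3 reads in Cond 2 replicate 1 and 0 in the 11 other libraries, where a count of 0 allows up to 0.156 to 0.203 TPM, for counting error only. The human naive marker of the KLF family was thus not detectable above the floor at this depth in any condition.

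**Figure D1:**
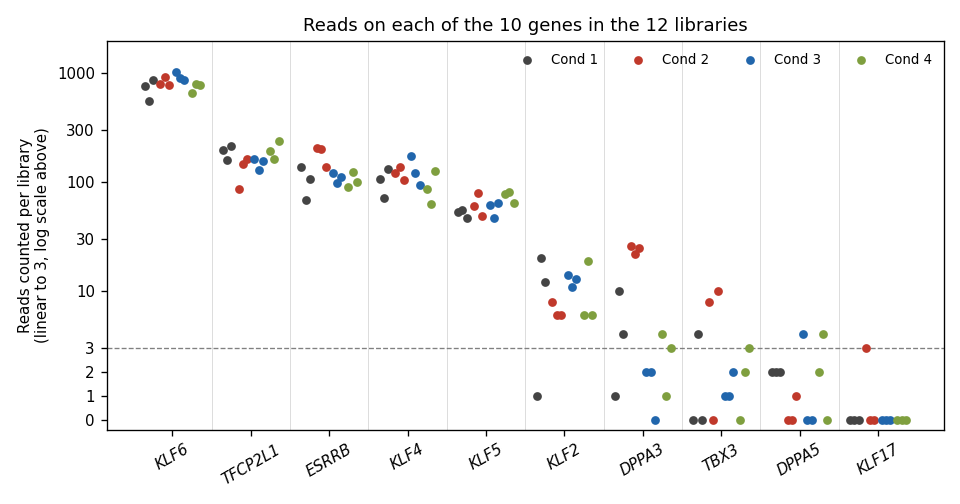
Reads per library for each of the 10 genes (vertical axis, linear up to 3 reads and logarithmic above), ordered from left to right by total reads, with each point 1 library coloured by condition and the dashed line at 3 reads. KLF6 lies between 561 and 1036 reads, DPPA3 reaches 22 to 26 reads in Cond 2 only, and KLF17 has reads in 1 library.

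The genes lie on 9 chromosomes and none overlaps another gene on its own strand. In GRCh38 with GENCODE release 44, KLF6 is on chromosome 10 at 3775996-3785281, ESRRB on chromosome 14 at 76310712-76501837, TFCP2L1 on chromosome 2 at 121216587-121285202 and DPPA3 on chromosome 12 at 7711433-7717559. For TBX3, ESRRB, KLF4 and KLF17 a gene on the opposite strand overlaps the annotated span. The antisense partners counted here held 2 reads for TBX3 and 1 read for ESRRB over the 12 libraries. The pseudogene opposite KLF17 held 137 reads, while KLF17 itself was at 0 in 11 libraries. How the counting used strand is not given in the sources used here.

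Sequence shared with other loci matters for DPPA3 in particular. Of the 31-base words in its transcripts, 68.4% also occur elsewhere on the primary chromosomes, in pseudogenes and other copies. The share was 12.1% for KLF17, 9.54% for DPPA5, 1.76% for KLF4 and under 1% for the other 6 genes, with 0% for ESRRB and KLF5. Of the noncoding copies of DPPA3, DPPA3P2 held 9 reads, ENSG00000283098 held 11 and DPPA3P1 held 0 in all libraries together. TMSB15B, a protein-coding gene, had 351 reads in all and up to 49 in a library, more than DPPA3. Its annotated span, introns included, holds 37% of these words, and its transcripts were not searched for them. ENSG00000290759, which holds 58.9% of the words, had no count here. How reads with several matches were counted is not given in the sources used here, so values of DPPA3 are uncertain to that extent.

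The promoters of the 4 genes that passed the test against Cond 1 in at least 1 condition are shown, since a KLF box in them would be a place where KLF factors can bind. The sequences are those before the annotated gene in GRCh38.p14, taken from RefSeq, 5′ to 3′ on the gene's strand, and capitals mark a match to the KLF box GGGNGNGGC on either strand. The spans are chr12:7711183-7711432 for DPPA3 (plus strand), chr14:76310527-76310711 for ESRRB (plus), chr2:121285203-121285452 for TFCP2L1 (minus) and chr10:3785282-3785459 for KLF6 (minus).
DPPA3: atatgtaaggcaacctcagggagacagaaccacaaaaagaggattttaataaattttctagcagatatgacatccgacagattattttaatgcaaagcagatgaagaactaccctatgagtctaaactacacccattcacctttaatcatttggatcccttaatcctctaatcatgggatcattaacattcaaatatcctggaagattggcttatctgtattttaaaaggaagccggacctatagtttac
ESRRB: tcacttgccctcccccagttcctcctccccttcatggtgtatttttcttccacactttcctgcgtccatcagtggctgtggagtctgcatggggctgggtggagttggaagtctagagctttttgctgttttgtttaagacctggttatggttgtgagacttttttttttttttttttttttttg
TFCP2L1: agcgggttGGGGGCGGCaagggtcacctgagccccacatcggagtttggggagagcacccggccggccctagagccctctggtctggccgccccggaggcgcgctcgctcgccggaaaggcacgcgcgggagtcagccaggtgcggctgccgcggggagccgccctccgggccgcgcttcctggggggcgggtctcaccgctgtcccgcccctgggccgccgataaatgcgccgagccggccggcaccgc
KLF6: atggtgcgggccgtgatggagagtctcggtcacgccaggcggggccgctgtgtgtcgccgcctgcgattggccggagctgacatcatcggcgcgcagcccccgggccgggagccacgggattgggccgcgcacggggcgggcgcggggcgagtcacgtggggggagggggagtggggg

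Over the 250 bases before the RefSeq start, DPPA3 has a GC content of 35.6% and ESRRB 44.4%. Both are below the median of 58% over all promoters, and neither stretch holds a KLF box. The printed ESRRB piece is the first 185 of its 250 bases. TFCP2L1, at 76.8% GC, holds 1 KLF box, from 242 to 234 bases before the start. KLF6 has 1 box from 54 to 46 bases before its RefSeq start, which lies downstream of the printed stretch. A KLF box was found in 28.7% of 27305 promoters of 250 bases. The ESRRB element AAGGTCA (3.46% of promoters), the T-box site AGGTGTGA (0.787%) and the octamer ATTTGCAT (1.66%) were also searched on both strands and had no match in the 4 printed pieces. A match describes the letters only, and TBX3 had no entry in the promoter table.

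The comparison of Cond 2 with Cond 1 asks how heated medium moved these genes. DPPA3 and ESRRB were higher in Cond 2 and TFCP2L1 was lower, by 4.56 times, 1.72 times and 1.47 times. Of the 10 genes 7 had enough reads to be tested, and these 3 passed at an adjusted p-value under 0.05 (edgeR quasi-likelihood test with Benjamini-Hochberg adjustment over 17747 genes). Of all genes tested, 20.9% passed in this comparison (10.8% higher and 10.1% lower). The median log2 fold change was 0.21 over the 7 and 0.00018 over all genes tested. With a fold change above 2 required as well, which 4.34% of all genes met, DPPA3 alone passed.

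ESRRB held 4.22, 2.47 and 3.05 TPM in the 3 libraries of Cond 1 and 6.94, 5.99 and 4.87 TPM in those of Cond 2. In Cond 3 it was at 3.33, 3.02 and 3.56 TPM, and in Cond 4 at 3.24, 4.11 and 3.15 TPM. All libraries of Cond 2 lay above all libraries of the other conditions, which overlapped each other. The log2 fold change of ESRRB in Cond 2 was 0.78 (SE 0.2, 95% interval 0.37 to 1.2, edgeR adjusted p = 0.00632). This call held in all 6 fits that each left out 1 library, with adjusted p-values of 0.0022 to 0.0426, and was just missed with limma on log2(TPM + 0.1) (adjusted p = 0.0512). Against Cond 1 its log2 difference in Cond 3 was -0.0077, with a 95% interval of -0.43 to 0.42. From Cond 2 to Cond 3 ESRRB fell by 0.79 on the log2 scale (SE 0.199, edgeR adjusted p = 0.00304). Its mean levels thus ran from Cond 2 (5.93 ± 1.04 TPM) through Cond 4 (3.50 ± 0.528) and Cond 3 (3.30 ± 0.271) to Cond 1 (3.25 ± 0.896; SD, n = 3 each), and the last 3 did not differ beyond their spread.

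DPPA3 showed 1, 10 and 4 reads in Cond 1 and 26, 22 and 25 reads in Cond 2. In Cond 3 it had 2, 2 and 0 reads and in Cond 4 it had 4, 1 and 3 reads. Every library of Cond 2 stood above every other library, and the 3 other conditions overlapped. In TPM these were 4.30 ± 0.691 in Cond 2, 0.904 ± 0.914 in Cond 1, 0.483 ± 0.296 in Cond 4 and 0.210 ± 0.182 in Cond 3 (SD, n = 3 each). The log2 fold change in Cond 2 was 2.19 (SE 0.682, 95% interval 0.78 to 3.6, edgeR adjusted p = 0.0238). The ratio of the summed reads, 73 against 15, was 4.66 per total count, with an exact 95% interval of 2.65 to 8.74 that covers counting error only. DPPA3 passed the filter on low counts through Cond 2, where it was high, so that a difference was built into its being tested. Its call against Cond 1 held in 1 of 6 fits with a library left out, the one without Cond 1 replicate 2 (adjusted p = 0.00883), and the other adjusted p-values reached 0.132. With limma on log2(TPM + 0.1) the log2 fold change of DPPA3 was 2.58 (adjusted p = 0.122).

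Summing DPPA3 with its noncoding copies, a choice made after the data were seen, gave 1, 11 and 5 reads in Cond 1 and 28, 28 and 29 reads in Cond 2. The log2 fold change of that sum was 2.23 (edgeR adjusted p = 0.0229). Relative to Cond 2, DPPA3 fell by 4.14 on the log2 scale in Cond 3 (SE 0.822, edgeR adjusted p = 0.000339), a call that held in 6 of 6 fits with a library left out. The summed reads, 73 in Cond 2 and 4 in Cond 3, gave a ratio of 18.7 per total count (exact 95% interval 6.99 to 70.4). Since DPPA3 passed the filter on low counts through Cond 2, a fall from Cond 2 was also built into its being tested. The fits with a library left out share this limit. For the sum with the noncoding copies, the log2 difference of Cond 3 was -3.43 from Cond 2 (edgeR adjusted p = 0.00101) and -1.2 from Cond 1 (edgeR adjusted p = 0.298). Against Cond 1, the log2 difference of DPPA3 in Cond 3 was -1.95 (95% interval -3.91 to 0.0092), with an adjusted p of 0.111 by edgeR. It was -2.46 without Cond 1 replicate 1, where it passed (adjusted p = 0.0498), and -0.87 without Cond 1 replicate 2 (adjusted p = 0.59). ESRRB and DPPA3 were the 2 genes of the 7 that passed from Cond 2 to Cond 3, both lower, where 38.2% of all genes passed and 19.2% were lower. DPPA3 alone of the 7 also had a fold change above 2, as 8.77% of all genes did.

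TFCP2L1 held 3.80, 3.64 and 3.92 TPM in Cond 1 and 1.84, 2.75 and 3.66 TPM in Cond 2. It was at 2.86, 2.52 and 3.14 TPM in Cond 3 and at 4.33, 3.41 and 4.72 TPM in Cond 4. Cond 2 replicate 3 lay within the range of Cond 1, while the 3 libraries of Cond 3 all lay below Cond 1. In Cond 2 TFCP2L1 fell by 0.56 on the log2 scale (SE 0.188, 95% interval -0.95 to -0.17, edgeR adjusted p = 0.0379). That call held only without Cond 2 replicate 3 (adjusted p = 0.00363) among the 6 fits with a library left out, and the exact permutation test on TPM gave p = 0.2. It was also lost in the 6 libraries of both conditions alone (edgeR adjusted p = 0.0694) and with limma on log2(TPM + 1) among genes at 1 TPM in all libraries (adjusted p = 0.104). In Cond 3 the log2 difference was -0.45 (SE 0.187, 95% interval -0.83 to -0.058), which did not pass (edgeR adjusted p = 0.0642) but did in the 6 libraries alone (adjusted p = 0.0253). The levels of Cond 2 and Cond 3 were apart by 0.11 on the log2 scale, with an interval of -0.28 to 0.51. ESRRB and TFCP2L1, both factors of the naive network, thus had log2 differences of opposite sign in Cond 2. The call of TFCP2L1 depended on the libraries and the test used.

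**Figure D2:**
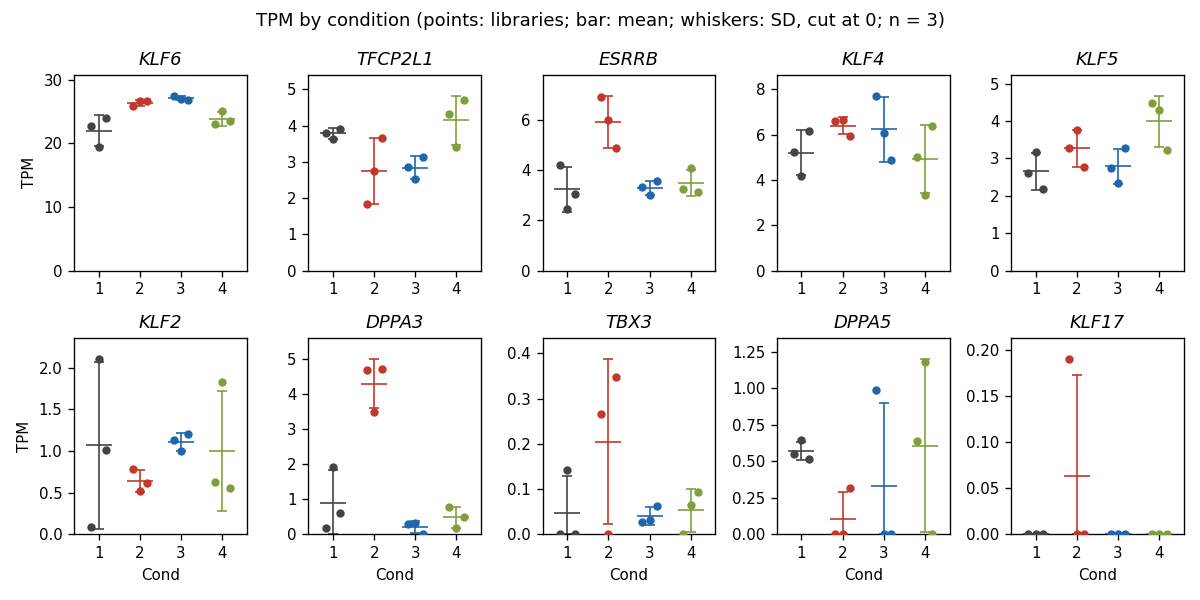
TPM of the 10 genes (vertical axes, each from 0, with its own scale) in Cond 1 to Cond 4 (horizontal axis), with points for the 3 libraries, a bar for the mean and whiskers for the SD, cut at 0. ESRRB and DPPA3 stand apart in Cond 2 at 5.93 and 4.30 TPM, while Cond 2 and Cond 1 overlap for TFCP2L1.

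Among the KLF factors of the 10 genes, KLF6 changed in Cond 3, while KLF2, KLF4 and KLF5 passed in no comparison. KLF17 was not tested. KLF6 held 22.7, 19.4 and 24.0 TPM in Cond 1, 25.9, 26.6 and 26.7 in Cond 2, 27.5, 27 and 26.9 in Cond 3, and 23, 25.1 and 23.6 in Cond 4. The libraries of Cond 2 and of Cond 3 all lay above those of Cond 1, and those of Cond 4 overlapped Cond 1. In Cond 3 KLF6 rose by 0.27 on the log2 scale, or 1.21 times (SE 0.0837, 95% interval 0.10 to 0.44, edgeR adjusted p = 0.013). It was the 1 gene of the 7 tested that passed in Cond 3, where 38.4% of all genes passed, 19.5% higher and 18.8% lower, and none of the 7 also had a fold change above 2, which 8.16% of all genes had. The call was lost without Cond 1 replicate 2, its lowest library (adjusted p = 0.0947), and held in the 5 other fits. With limma on log2(TPM + 0.1) it was lost as well (adjusted p = 0.0829). In Cond 2 its log2 difference of 0.17 (SE 0.084) did not pass (edgeR adjusted p = 0.161), while limma on log2(TPM + 1) among genes at 1 TPM in all libraries gave 0.26 (adjusted p = 0.0308). Cond 3 and Cond 2 differed by 0.10 on the log2 scale, with an interval of -0.073 to 0.27.

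KLF4 was at 5.25, 4.17 and 6.15 TPM in Cond 1, 6.59, 6.65 and 5.95 in Cond 2, 7.71, 6.08 and 4.89 in Cond 3, and 5.02, 3.35 and 6.36 in Cond 4. All conditions overlapped Cond 1. The 95% interval of its log2 difference from Cond 1 was -0.25 to 0.67 in Cond 2, -0.23 to 0.69 in Cond 3 and -0.57 to 0.37 in Cond 4. Differences of up to about that size could therefore not be resolved for this reprogramming factor. Reads of an endogenous KLF4 and of any transgene were not separated here.

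KLF5 was at 2.62, 3.17 and 2.18 TPM in Cond 1, 3.28, 3.76 and 2.76 in Cond 2 and 2.75, 2.33 and 3.28 in Cond 3. In Cond 4 it was at 4.48, 4.29 and 3.22 TPM, all above Cond 1. The log2 difference in Cond 4 was 0.58 (SE 0.246, 95% interval 0.072 to 1.09), with an unadjusted p of 0.0272 and an edgeR adjusted p of 0.79. KLF5 was the 1 gene of the 7 tested, and of the 10, whose TPM did not overlap between Cond 4 and Cond 1. Of all genes tested, 11.9% did not overlap there. The intervals of KLF5 in the other conditions included 0, from -0.29 to 0.74 in Cond 2 and from -0.47 to 0.57 in Cond 3.

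KLF2 rested on few reads and varied widely between the libraries of Cond 1 and of Cond 4. It had 1, 20 and 12 reads in Cond 1, 8, 6 and 6 in Cond 2, 14, 11 and 13 in Cond 3, and 6, 19 and 6 in Cond 4. The conditions overlapped Cond 1 throughout, and in Cond 1 a single read in replicate 1 stood against 20 in replicate 2. The 95% interval of the log2 difference was -2.29 to 0.71 in Cond 2 and -1.34 to 1.46 in Cond 3. The interval in Cond 3 thus included changes of KLF2 by 2 times in either direction.

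**Figure D3:**
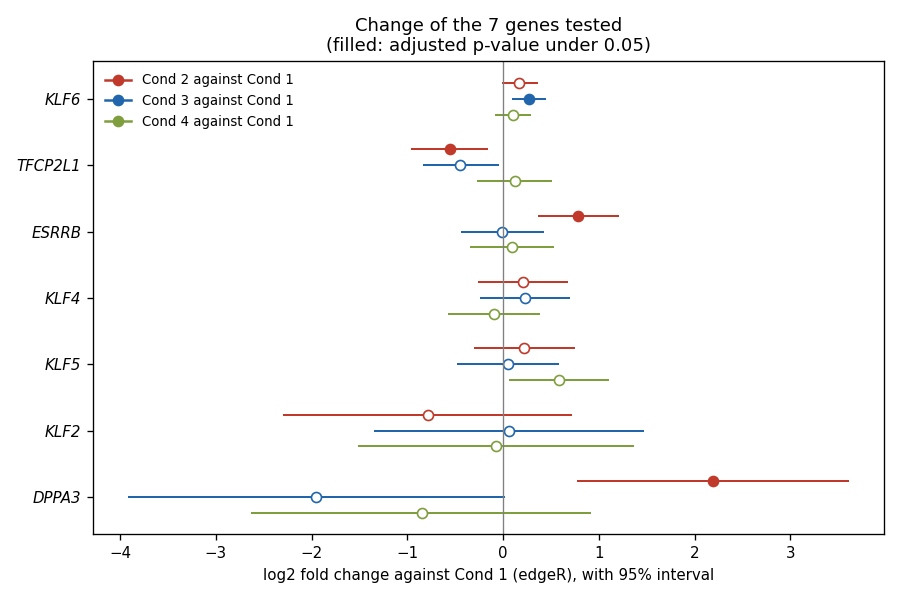
Log2 fold change against Cond 1 (horizontal axis) for the 7 genes tested (rows), with 95% intervals as lines and colours for Cond 2, Cond 3 and Cond 4. Filled points had an adjusted p-value under 0.05, and these were KLF6 in Cond 3 and TFCP2L1, ESRRB and DPPA3 in Cond 2.

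In Cond 4, the physical stimulus, 0 of the 7 genes tested passed (edgeR quasi-likelihood test), and DESeq2 also called 0. The background was 5 of 17747 genes, or 0.0282%. At an unadjusted p under 0.05 there was 1 gene, KLF5, of the 7, against 6.21% of all genes tested. The log2 differences of the 7 ranged from -0.85 for DPPA3 to 0.58 for KLF5, and their median was 0.091.

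The 3 genes below the filter were described by reads alone. DPPA5 had 2, 2 and 2 reads in Cond 1, 0, 0 and 1 in Cond 2, 4, 0 and 0 in Cond 3, and 2, 4 and 0 in Cond 4. Its libraries in Cond 2 did not overlap those of Cond 1 in TPM (exact permutation p = 0.1, the smallest value that 3 against 3 libraries allow), but all of these counts were at or under 3 reads. TBX3 had 0, 4 and 0 reads in Cond 1, 8, 0 and 10 in Cond 2, 1, 1 and 2 in Cond 3, and 0, 2 and 3 in Cond 4. The highest libraries of TBX3 were in Cond 2, which also held a library at 0, and the exact permutation test against Cond 1 gave p = 0.4. Among the 7 genes tested, the TPM of Cond 2 did not overlap Cond 1 for 3 genes, against 35.7% of all genes tested. That of Cond 3 did not overlap Cond 1 for 2 genes, against 48.6%. Over the 10 genes these counts were 4 and 2, the gene added in Cond 2 being DPPA5. Between Cond 3 and Cond 2 the TPM of 4 of the 7 genes did not overlap, against 47.6%.

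Other genes of naive pluripotency moved in both directions. Of a list of 25, 13 were tested. In Cond 2, 3 were higher and 5 lower, 61.5% of those tested against 20.9% of all genes, with a median log2 fold change of -0.16. NR5A2, a nuclear receptor that can act on pluripotency genes, fell by 2.13 on the log2 scale (SE 0.378, edgeR adjusted p = 0.000199), and DPPA2, a chromatin factor of early embryos, fell by 1.77 (SE 0.342, edgeR adjusted p = 0.000486). Both rested on few reads, 4 to 72 per library for NR5A2 and 10 to 72 for DPPA2. NR5A2 was at 1.17 TPM in Cond 1 and 0.279 in Cond 2. SOX15, an SRY-box factor, rose by 1.04 on the log2 scale (SE 0.173, edgeR adjusted p = 0.000101), from 18.5 ± 3.92 to 40.3 ± 7.65 TPM (SD, n = 3). FGF4, a growth factor of the epiblast, rose in Cond 2 by 1.57 (SE 0.486, edgeR adjusted p = 0.0228) and in Cond 3 by 1.70 (SE 0.483, edgeR adjusted p = 0.00744). It had 6 to 52 reads per library and was at 0.579 TPM in Cond 1, 1.87 in Cond 2 and 1.96 in Cond 3. In Cond 3, 2 of the list were higher and 3 lower, 38.5% of those tested against 38.4% of all genes, and the median was 0.078.

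Genes of primed pluripotency also moved in both directions. Of 16 genes 15 were tested, and 6 were higher and 7 lower in Cond 2, 86.7% of those tested against 20.9% of all genes, with a median log2 fold change of -0.36. OTX2, a homeobox factor of the primed state, rose by 1.61 on the log2 scale in Cond 2 (SE 0.0992, edgeR adjusted p = 3e-11) and by 0.94 in Cond 3 (SE 0.0987, edgeR adjusted p = 9.61e-08). THY1, a surface antigen of primed cells, fell by 1.31 in Cond 2 and by 1.56 in Cond 3 (edgeR adjusted p = 8.84e-12 and 3.63e-13). In Cond 3, 4 genes were higher and 7 lower, 73.3% against 38.4% of all genes, with a median of -0.15. DUSP6, a phosphatase induced by ERK signalling, fell in Cond 3 by 5.29 on the log2 scale (SE 0.175, edgeR adjusted p = 7.12e-16), from 71.3 ± 13.8 to 1.84 ± 0.316 TPM (SD, n = 3).

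The relatives of the KLF factors were described for comparison within the family. Of 22 other KLF and SP genes 17 were tested. In Cond 2, 4 were higher and 2 lower (35.3% of those tested against 20.9% of all genes), and in Cond 3, 6 were higher and 3 lower (52.9% against 38.4%). KLF9, a factor induced by steroid hormones, fell by 1.6 on the log2 scale in Cond 2 (SE 0.284, edgeR adjusted p = 0.000189) and rose by 1.15 in Cond 3 (SE 0.241, edgeR adjusted p = 0.000565). KLF11, a factor induced by TGF-beta, rose by 0.63 in Cond 2 (SE 0.0967, edgeR adjusted p = 3.59e-05) and fell by 0.95 in Cond 3 (SE 0.103, edgeR adjusted p = 1.53e-07). SP8 fell by 1.18 in Cond 2, and SP6 rose by 1.06 in Cond 3 (edgeR adjusted p = 3.68e-07 and 0.0062).

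The LIF and STAT3 pathway sustains KLF4, TFCP2L1 and related factors in mouse naive cells. Of 14 genes 13 were tested, and 1 was higher and 5 lower in Cond 2 (46.2% of those tested against 20.9% of all genes, median log2 fold change -0.25). JAK1, a kinase of the receptor complex, fell by 0.87 on the log2 scale (SE 0.102, edgeR adjusted p = 9.28e-07). BCL3, a STAT3 target, fell by 0.95 in Cond 2 (edgeR adjusted p = 0.00415) and rose by 0.59 in Cond 3 (edgeR adjusted p = 0.0303). GBX2, a homeobox gene and STAT3 target, went from 7.15 ± 2.63 TPM in Cond 1 to 0.426 ± 0.502 in Cond 2 and 0.269 ± 0.466 in Cond 3 (SD, n = 3), log2 differences of -4.17 and -4.78 (edgeR adjusted p = 5.17e-05 and 1.02e-05). GBX2 passed the filter on low counts through Cond 1 and Cond 4 (6.04 TPM), where it was high. A fall in Cond 2 and Cond 3 was therefore built into its being tested. In Cond 3, 1 gene was higher and 3 lower (30.8%, below the 38.4% of all genes, median -0.11), among them SOCS3, the feedback inhibitor of the pathway, which fell by 0.83 (SE 0.125, edgeR adjusted p = 1.33e-05). STAT3 itself differed by 0.039 in Cond 2 and 0.14 in Cond 3 and did not pass (edgeR adjusted p = 0.765 and 0.119).

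Immediate early genes were included because KLF2, KLF4 and KLF6 also respond to serum and handling. Of 12 genes 11 were tested, with 3 higher and 1 lower in Cond 2 (36.4% against 20.9% of all genes, median 0.20) and 1 higher and 6 lower in Cond 3 (63.6% against 38.4%, median -1.08). In Cond 3, EGR3, a zinc finger factor, fell by 2.40 on the log2 scale (SE 0.241, edgeR adjusted p = 4.93e-08) and rose by 0.81 in Cond 2 (edgeR adjusted p = 0.00422). ATF3, a stress-induced factor, fell by 1.85 in Cond 3, MYC, a growth regulator, by 1.65 and EGR2 by 1.39 (edgeR adjusted p = 1.13e-13, 1.46e-10 and 0.000304). KLF6 rose in the same condition. In Cond 4, 0 of the 68 genes tested in these 5 lists passed with edgeR or DESeq2, and 3 (4.41%) had an unadjusted p under 0.05 with edgeR, namely CBFA2T2, KLF1 and ZIC5.

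**Figure D4:**
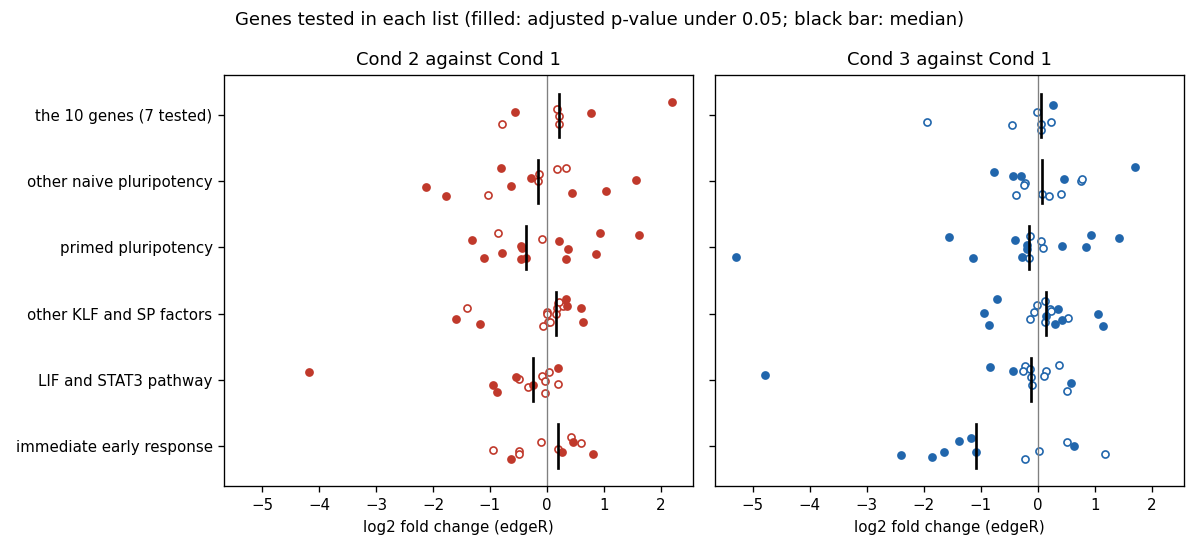
Log2 fold change (horizontal axes) of the genes tested in each list (rows) in Cond 2 (left) and Cond 3 (right) against Cond 1, with 1 point per gene, filled where the adjusted p-value was under 0.05, and a black bar for the median. Higher and lower genes stand on both sides of 0 in most rows, and the lowest median is -1.08, for the immediate early genes in Cond 3.

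Markers of other cell types moved with some of these conditions. DPPA3 is also a gene of primordial germ cells, and of 9 markers of these cells DND1 and DDX4 had at most 3 reads in every library. DAZL, another of the 9, had 122 to 255 reads per library. It was at 10.1 TPM in both Cond 1 and Cond 2 and did not pass (log2 difference -0.081, edgeR adjusted p = 0.804). NANOS3 and SOX17, which define germ cell fate, were at 0.280 ± 0.485 and 0 TPM in Cond 2 (SD, n = 3). The 9 markers summed to 230 to 258 TPM in Cond 1, 188 to 224 in Cond 2, 291 to 324 in Cond 3 and 226 to 227 in Cond 4. PDPN, the most abundant of them, went from 170 TPM in Cond 1 to 108 in Cond 2 and was the largest part of the sum. Of the 5 germ cell markers tested, 2 were higher and 1 lower in Cond 2, 60% against 20.9% of all genes tested. KIT, a receptor of germ cells and other stem cells, rose by 0.58 on the log2 scale in Cond 2 (SE 0.0778, edgeR adjusted p = 6.73e-06). TFAP2C, expressed in both germ cells and naive cells, rose by 0.44 on the log2 scale in Cond 2 (SE 0.111, edgeR adjusted p = 0.00569).

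The 13 markers of trophoblast and amnion summed to 27.4 to 32.5 TPM in Cond 1, 35.0 to 49.4 in Cond 2, 34.5 to 39.7 in Cond 3 and 26.1 to 29.0 in Cond 4. In Cond 2, TFAP2A was at 4.25 ± 1.87 TPM against 0.142 ± 0.0793 in Cond 1 and GATA3 at 7.46 ± 4.2 against 0.268 ± 0.117 (SD, n = 3). GABRP, an amnion marker, went the other way, from 6.59 to 0.293 TPM, and fell by 4.55 on the log2 scale in Cond 2 and by 1.38 in Cond 3 (edgeR adjusted p = 4.88e-11 and 1.89e-05). Of the 6 markers tested, 4 were higher and 1 lower in Cond 2 and also in Cond 3. This was 83.3% of those tested, against 20.9% of all genes in Cond 2 and 38.4% in Cond 3. GATA2, GATA3, TFAP2A and VTCN1 were at 0.3, 0.268, 0.142 and 0.0764 TPM in Cond 1. They passed the filter on low counts mainly through conditions where they were high, so part of this share was built in. CGA, TP63, ELF5 and VGLL1 had at most 3 reads in every library. The 9 markers of fibroblasts and mesenchyme summed to 292 to 316 TPM in Cond 1, 205 to 253 in Cond 2, 541 to 578 in Cond 3 and 241 to 280 in Cond 4, with LUM and DCN at most at 3 reads. COL1A1 and COL1A2 made up most of that sum, at 246 and 47 TPM in Cond 1 and 436 and 110 in Cond 3. Of the 7 tested, 4 were higher and 0 lower in Cond 3, 57.1% against 38.4% of all genes. COL3A1, PDGFRB and TWIST1 did not pass there. The 6 endothelial markers summed to 84.4 to 98.4 TPM in Cond 1, 58.8 to 65.8 in Cond 2, 91.8 to 105 in Cond 3 and 81.5 to 87.7 in Cond 4. KDR and TEK made up most of that sum, at 59.7 and 25.7 TPM in Cond 1. PECAM1 and CDH5 were at 0.137 and 0.0772 TPM there. In Cond 3 KDR fell by 0.67 on the log2 scale while TEK rose by 1.03 (edgeR adjusted p = 5.29e-06 and 2.21e-09). The 4 keratinocyte markers had at most 3 reads in every library. The part of these markers in the values of ESRRB, DPPA3 and TFCP2L1 in Cond 2 and of KLF6 in Cond 3 was not tested.

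The genes with the most similar profiles were found among 12506 protein-coding genes, by the root mean square difference of log2 CPM over the 12 libraries after centring on Cond 1. For ESRRB the nearest were TSPOAP1 and EXOC6, at distances of 0.185 and 0.186, where the median gene was at 0.511. For DPPA3 they were TMEM88 (0.604) and SHISA2 (0.711), with a median of 1.31. TFCP2L1 was nearest to RFTN1 (0.162) and COL25A1 (0.173), and KLF6 to TPP2 (0.063) and DZIP3 (0.0721), with medians of 0.496 and 0.301. These distances describe the 12 libraries, and no test was made on them.

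DPPA3 lies in a cluster of pluripotency genes, with GDF3 15.7 kb and NANOG 70.2 kb away. Of 6 protein-coding neighbours within 100 kb, 3 were tested. NANOG fell by 1.09 on the log2 scale in Cond 2 (SE 0.0802, edgeR adjusted p = 6.43e-10), where DPPA3 rose, and by 2.16 in Cond 3 (SE 0.0854, edgeR adjusted p = 1.4e-14). GDF3, a ligand of the TGF-beta family, had a log2 difference of -1.04 in Cond 2 (edgeR adjusted p = 0.109) and 0.77 in Cond 3 (edgeR adjusted p = 0.144). SLC2A14, a glucose transporter, was at -0.50 in Cond 2 (edgeR adjusted p = 0.0502) and fell by 0.51 in Cond 3 (edgeR adjusted p = 0.0283).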

How the data were processed

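RNA-Seq of 12 libraries of 201B7 was used, 3 for each of 4 conditions. According to the methods and the submitters' processing notes, the authors made strand-specific libraries from poly(A) RNA, converted and trimmed the reads (bcl2fastq 2.20.0.422, cutadapt 4.1, fastp 0.20.1), aligned them to GRCh38 with HISAT2 2.1.0 and counted them with featureCounts. The authors deposited raw counts per gene, and the deposited TPM were computed from these counts and the gene lengths. Of the genes in the TPM table, 2042 had no count here and 5 lines of the count table held no whole gene, so neither was tested. Totals were 16441148 to 21871503 counts per library, and intervals and floors from counts cover counting error only. Over the 12 pairs of libraries of 1 condition, the chi-square per gene was 3.99 to 9.42, above sampling noise.

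Counts were normalized by TMM and tested in 17747 genes past the filter on low counts by edgeR 4.0.16 (quasi-likelihood test, R 4.3.3), in 1 fit of 12 libraries, with Benjamini-Hochberg adjustment over all genes tested and a threshold of 0.05. Exact permutation tests on TPM were two-sided and could not go below 0.1. The alternatives were DESeq2 1.42.0, other normalizations and filters, limma 3.58.1 on log2(TPM + 1) and log2(TPM + 0.1), a block for replicate number, a fit of 6 libraries, other thresholds and each library left out. On simulated data for Cond 2 against Cond 1 with 17331 genes, edgeR recovered 86 of 100 genes changed by 1 on the log2 scale and 99 of 100 changed by 2, with 13 false calls. The changed genes were drawn from genes with more reads in total than DPPA3 or KLF2 had. These rates therefore do not describe DPPA3 or KLF2.

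The 10 genes were matched by name, without a threshold on any value, but they and the lists and tests were chosen with earlier results of these data known, so they are not independent evidence. The genes named were the 10 genes, the 2 nearest profiles of each that passed against Cond 1, in each list the up to 4 genes with the largest change among those called, and markers by their levels. TFAP2C, STAT3, CBFA2T2, KLF1, ZIC5, DAZL, GATA2, COL3A1, PDGFRB, TWIST1, the genes without a test and the neighbours of DPPA3 were named after their values were seen. Proteins were not used here. Values of 1 gene in the primed list are not reported here.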

Additional observations from a re-analysis of the deposited data

How the results depend on the processing

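In Cond 2, DPPA3, ESRRB and TFCP2L1 passed, 3 genes. That count was 0 with limma on log2(TPM + 0.1), 1 at an adjusted p under 0.01, 1 with a fold change above 2, and 1 to 2 with a library left out. In Cond 3 the count of 1 became 0 with limma on log2(TPM + 0.1), 0 at an adjusted p under 0.01, 0 with a fold change above 2, 2 in the 6 libraries alone, and 0 to 2 with a library left out. From Cond 2 to Cond 3 the count of 2 became 1 with limma on log2(TPM + 1) among genes at 1 TPM in all libraries, where DPPA3 was not in the table, and 1 with a fold change above 2. It was 2 in each fit with a library left out. In Cond 4 the count was 0 under each alternative run. Except where the construction shows it, the cause was not tested. Same-numbered libraries deviated together with correlations of -0.013 to 0.038, so the numbers were not taken as pairs. With the replicate number as a block the count in Cond 3 was 2, with TFCP2L1 added (edgeR adjusted p = 0.0436). The other 3 counts stayed within 1.5 times. Signs that turned were all of differences that did not pass. ESRRB in Cond 3, at -0.0077, was 0.011 with upper-quartile normalization, 0.038 and 0.054 with limma at a pseudocount of 1 and 0.1, and 0.0056 with the replicate block. KLF2 in Cond 4 was 0.024 and 0.32 with limma, and KLF4 between Cond 3 and Cond 2 was -0.05 and -0.06. With a library left out, KLF2 ran from -1.34 to 0.10 in Cond 2, -0.50 to 0.94 in Cond 3 and -0.84 to 0.81 in Cond 4. DPPA3 in Cond 4 ran from -1.36 to 0.23, and ESRRB from -0.17 to 0.22 in Cond 3 and -0.069 to 0.32 in Cond 4. KLF4 ran from -0.33 to 0.11 in Cond 4 and -0.16 to 0.16 between Cond 3 and Cond 2, KLF5 from -0.085 to 0.19 in Cond 3, and TFCP2L1 from -0.092 to 0.36 between Cond 3 and Cond 2. The list counts stayed within 1.5 times in the alternatives run, except the immediate early genes in Cond 2 (2 to 4 with a library left out, 2 without Cond 2 replicate 1). Depth limits KLF2, DPPA3, DPPA5, TBX3 and KLF17, which had at most 26 reads in a library.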

Other observations

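Some genes tied to naive pluripotency had TPM values but no count here, or too few reads, and were not tested. SUSD2, a surface marker of naive human cells, was at 7.43 ± 0.417 TPM in Cond 1, 3.78 ± 0.650 in Cond 2, 3.87 ± 0.912 in Cond 3 and 5.98 ± 1.17 in Cond 4 (SD, n = 3 each). DNMT3L, a cofactor of DNA methylation, was at 2.16 ± 0.954, 1.67 ± 1.36, 1.46 ± 0.942 and 1.28 ± 0.434 TPM in the same order. LIF, the ligand of the STAT3 pathway, was at 11.9 ± 2.27 TPM in Cond 1, 9.88 ± 1.81 in Cond 2, 6.37 ± 0.805 in Cond 3 and 10.7 ± 0.749 in Cond 4. Among genes of the oocyte and early embryo, KHDC3L had 0 to 10 reads and a mean of 1.22 ± 0.463 TPM in Cond 2 against 0.272 ± 0.472 in Cond 1 (SD, n = 3). OOEP, of the same complex, had 0 to 8 reads, with 0.377 ± 0.654 TPM in Cond 2 and 0.0388 ± 0.0672 in Cond 1, where a spread above the mean shows that single libraries held the reads.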
